A study of Mus musculus with 8 samples.

Results

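The genes described here are Mgp, Grem1, Nog, Fst, Bmp2, Bmp4, Bmp7, Bambi, Id1 and Id3, which belong to the bone morphogenetic protein (BMP) axis: secreted ligands, the proteins that bind them outside the cell, a decoy receptor and nuclear target genes. Their probes were all those, other than control spots, whose gene name in the scanner files is one of these 10 symbols. This gave 10 of 30222 gene names and 11 of 39429 probes, 1 for each gene and a further 1 for Bmp4. The genes had been picked on the difference between R175Q and wild-type arrays, in which Mgp and Grem1 were already known to be higher. Each difference of these 10 genes between the groups is therefore given with its standard error as a description. How many of their probes met the rule used for all probes is counted once, beside the share of all probes that did, and nothing is read from it.

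RNA came from NMuMG-NT2197 cells, a derivative of the mouse mammary epithelial line NMuMG. ShcA is an adaptor protein that binds phosphotyrosine on activated receptors through its PTB and SH2 domains. In 4 samples the cells carried a wild-type ShcA cDNA and in 4 the mutant R175Q, with glutamine in place of arginine in the PTB domain. Both forms were delivered in the vector pMSCV/hygro, so every sample holds an introduced ShcA and the comparison is between its forms. The comparison asks which transcripts differ when the PTB domain of the introduced ShcA is mutated. The labels do not say whether each line is a clone or a pool, and they do not trace replicates to separate cultures, so the errors and p-values below reflect spread between these samples, which may be technical. The extraction label speaks of microdissected material, whereas the growth label describes cells in culture.

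Each sample was labelled with Cy3 after 2 rounds of linear amplification and shared its array with a reference RNA labelled with Cy5, always in that orientation. Whether the reference was mouse or human RNA differs between label fields. Values below are Cy3 intensity above local background, in the scanner's linear units, and log2 ratios of Cy3 over Cy5, in which 1 unit is a doubling relative to the reference. A probe counted as measured where the scanner software marked its Cy3 spot as well above background, and it was kept for the fit where this held on at least 4 of the 8 arrays. Of all spots, 53.7% to 63% stood well above background in Cy3 and 61.1% to 71.7% in Cy5, and 0 were saturated. The arrays lay on 4 slides: slide 1 held R175Q replicate 1, slide 2 held R175Q replicate 2 and wild-type replicate 1, slide 3 held R175Q replicate 3 with wild-type replicates 2 and 3, and slide 4 held replicate 4 of both groups. Precision is set by having 4 arrays in each group. Cdh1, which encodes E-cadherin and marks epithelium, stood far above the reference in both groups, at a log2 ratio of 4.74 ± 0.16 (SD, n = 4) in R175Q and 4.74 ± 0.15 (SD, n = 4) in wild type. The epithelial markers did not all do so: Epcam, measured on all 8 arrays, stood far below the reference at −5.06 ± 0.16 and −4.79 ± 0.17 (SD, n = 4 each), and Cldn3 was not well above background on any array.

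BMPs are secreted dimers that bring together type I and type II receptor kinases, which phosphorylate Smad1, Smad5 and Smad9; these join Smad4 and enter the nucleus, where Id genes are among the best known direct targets. The signal is limited outside the cell by antagonists that hold the ligand away from its receptors, and at the membrane by Bambi, which resembles a type I receptor but lacks the kinase. In the mammary gland BMP signalling takes part in the early bud and in the exchange between epithelium and stroma.

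The stretches of transcript that were read are shown first, because for Bmp4 the probe decided whether the gene was measured at all. Each probe was 60 bases long, and its bases 31 to 60 are given 5′ to 3′ as in the scanner files; capitals mark the polyadenylation hexamer AATAAA, read on the printed strand only. The first group holds the secreted antagonists.
Mgp: cagtcatttggttgtggagtttcgttttat
Grem1: aagtcttttgtcttgtgaagaaccttcaga
Nog: accttctgcccggtgctgtacgcgtggaat
Fst: ggcaaaacgaaacacaacaaAATAAAtaat
The ligands follow, with the Bmp4 probe that was measured before the one that was not.
Bmp2: ctaAATAAAatataatatttcttctttatt
Bmp4, upstream probe: tccctatagctggacttttatcttaaaaaa
Bmp4, downstream probe: gaaAATAAAatgagtcattattttaaagat
Bmp7: agaagccactgtaatgatatgtcacaataa
The target genes come last.
Id1: ttttttgttgttattaaacaaacactttag
Id3: cactccggaacttgtgatctccaaggacaa
The hexamer lay in the Fst probe, the Bmp2 probe and the downstream Bmp4 probe, and 12.6% of the 39429 probes hold it. The downstream Bmp4 probe was 15% G and C, where the median over all probes was 41.7%, and no probe on the array had a lower share. Whether the probes lie in coding or untranslated sequence was not determined here.

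Of the 11 probes, 8 were kept. The Nog probe, the Bambi probe and the downstream Bmp4 probe were not.

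**Figure D1:**
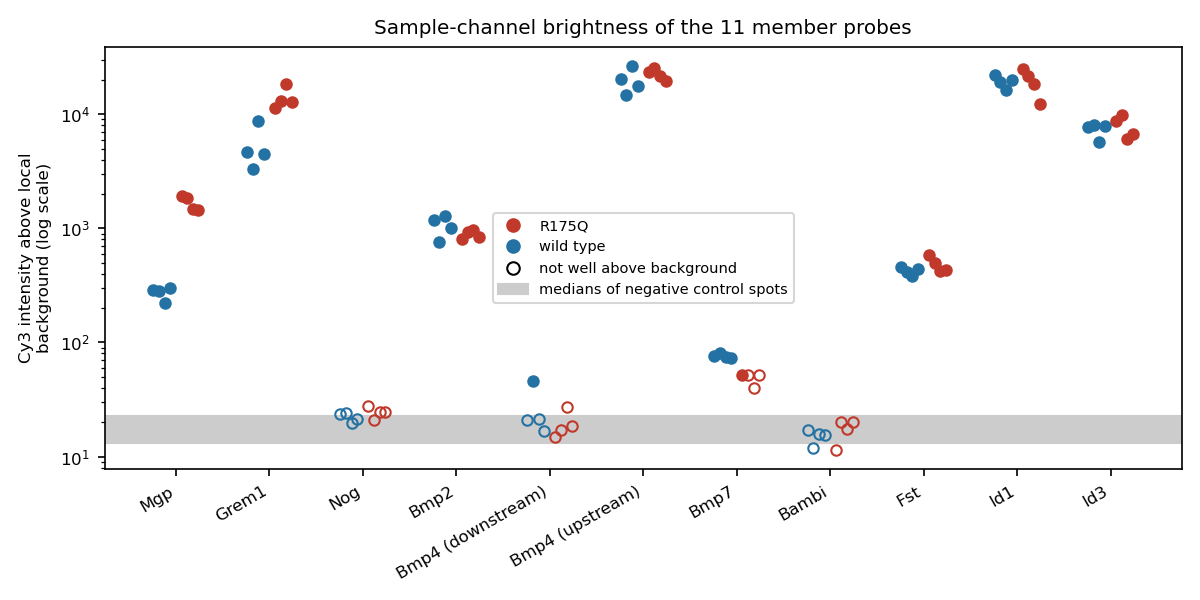
Cy3 intensity above local background (log scale) of the 11 probes on each array, wild type in blue and R175Q in red, with open circles where the spot was not well above background and a grey band over the medians of the 153 negative control spots (13.1 to 22.7). The probes of Bambi, the downstream Bmp4 probe and Nog lay in or near the band, Bmp7 lay a little above it, and the others lay clear of it; brightness is not comparable between probes.

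Mgp encodes matrix Gla protein, a small secreted protein that depends on vitamin K, keeps soft tissue from calcifying and binds BMP2 and BMP4. Its probe lies at chr6:136821125-136821184 on the minus strand of mm9. Cy3 intensity was 1913, 1854, 1476 and 1447 in R175Q replicates 1 to 4. In wild-type replicates 1 to 4 it was 291, 282, 223 and 298. The lowest R175Q array was thus several times as bright as the highest wild-type array, while the reference channel stayed between 6099 and 8264 on all 8 arrays. The log2 ratios were −1.34, −1.38, −1.82 and −1.39 in R175Q and −3.79, −3.90, −3.88 and −3.80 in wild type. The groups did not overlap, and both lay below the reference RNA. The difference was 2.36 ± 0.10 log2 (SE, n = 4 against 4), which is 5.14-fold. Within slides 2, 3 and 4 it was 2.41, 2.07 and 2.41. With the background fitted on all spots in place of the negative control spots it was 1.61 ± 0.22.

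Grem1 encodes gremlin 1, a secreted antagonist of the DAN family that binds BMP2, BMP4 and BMP7. Its probe lies at chr2:113589227-113589286 on the minus strand of mm9. Cy3 intensity was 11239, 13167, 18498 and 12701 in R175Q replicates 1 to 4. It was 4694, 3326, 8747 and 4469 in wild-type replicates 1 to 4. Every R175Q array was brighter than every wild-type array, but wild-type replicate 3 came close to the R175Q arrays. The log2 ratios were −0.58, −0.59, 0.10 and −0.26 in R175Q and −1.84, −2.08, −0.89 and −1.79 in wild type. The difference was 1.32 ± 0.24 log2 (SE, n = 4 against 4), or 2.49-fold, with a 95% interval of 0.78 to 1.86. Within slides 2, 3 and 4 it was 1.24, 1.58 and 1.54. Without wild-type replicate 3 it was 1.57 ± 0.16, and without R175Q replicate 3, the brightest of its group, it was 1.17 ± 0.25. The arrays of a group were far less alike for Grem1 than for most probes: its pooled SD of 0.43 was larger than that of 99.5% of the 22841 kept probes, whose median was 0.12, whereas the SD of Mgp, 0.17, was larger than that of 78.1%. Such spread was shared by Bmp2 and Id1, whose SDs of 0.41 and 0.39 were larger than those of 99.3% and 99.1% of kept probes.

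The other pair of antagonists gave no such pattern. Nog encodes noggin, a secreted protein that encloses BMP dimers and blocks both receptor binding faces. Its Cy3 intensity ran from 20.8 to 27.9 in R175Q and from 19.8 to 23.9 in wild type, and it was not well above background on any of the 8 arrays. The probe did give signal with the reference RNA, at 81 to 94.8 in Cy5 on all 8 arrays. Fst encodes follistatin, which binds activins tightly and some BMPs more weakly. Its Cy3 intensity ran from 426 to 584 in R175Q and from 386 to 456 in wild type. The log2 ratios overlapped, from −1.78 to −1.46 in R175Q and from −1.86 to −1.46 in wild type. The difference of Fst was 0.01 ± 0.11 (95% interval −0.23 to 0.24), and −0.18 ± 0.17 with the background fitted on all spots.

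Among the ligands, Bmp7 was lower in R175Q. Bmp7 encodes a BMP that is also a key factor for kidney and eye development. Its probe lies at chr2:172695203-172695262 on the minus strand of mm9. Cy3 intensity was 40.1 to 52 in R175Q and 72.4 to 81.3 in wild type, close to the background of the arrays. The spot was well above background on 4 of 4 wild-type arrays and on 1 of 4 R175Q arrays, so the probe was kept through the wild-type arrays, the group in which it is high, and R175Q was mostly not measured. The log2 ratios ran from −3.06 to −2.87 in R175Q and from −2.44 to −2.21 in wild type, without overlap. The difference was −0.61 ± 0.07 (SE, n = 4 against 4), and −0.63, −0.61 and −0.71 within slides 2, 3 and 4. Its size varied with the processing, from −0.45 ± 0.17 with scaling between arrays to −1.42 ± 0.21 with the scanner's own ratio, and was −0.52 ± 0.09 with no background correction and −0.79 ± 0.43 with the background fitted on all spots.

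Bmp2 and Bmp4 encode closely related ligands that share receptors and antagonists. The Bmp2 probe gave Cy3 intensities of 808, 928, 965 and 839 in R175Q and of 1172, 752, 1291 and 1002 in wild type. The reference channel of this probe was well above background on 1 of 8 arrays, at 27.2 to 81.7, so its ratio has a dim denominator. The groups overlapped, and the difference of Bmp2 was −0.25 ± 0.23 (95% interval −0.77 to 0.26). Within slides 2, 3 and 4 it was −0.29, 0.28 and −1.09, with no common sign. It was −0.04 ± 0.19 without R175Q replicate 4 and −0.45 ± 0.20 without wild-type replicate 2. From the Cy3 channel alone the difference of Bmp2 was −0.31 ± 0.12, and with the background fitted on all spots it had the other sign, at 0.49 ± 0.63. Bmp2 therefore has no settled direction here.

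The upstream Bmp4 probe, at chr14:47003391-47003450 on the minus strand of mm9, gave Cy3 intensities of 19469 to 25680 in R175Q and 14703 to 26385 in wild type. The log2 ratios lay between 0.09 and 0.22 in R175Q and between −0.23 and 0.41 in wild type, where replicate 3 was the highest. The R175Q values fell inside the wild-type range, and the difference was 0.14 ± 0.12 (95% interval −0.13 to 0.41). It was 0.28 ± 0.06 without wild-type replicate 3 and 0.06 ± 0.12 without wild-type replicate 2. The downstream Bmp4 probe, at chr14:47003198-47003257 and 133 bases away, read 14.9 to 26.9 in R175Q and 16.6 to 45.8 in wild type. It was well above background in Cy3 on wild-type replicate 2 and on no other array, and in Cy5 on none, so what is said of Bmp4 rests on the upstream probe.

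Bambi, the decoy receptor, was not well above background in either channel on any array, with Cy3 intensities of 11.4 to 20.2 in R175Q and 11.9 to 17.1 in wild type.

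Id1 and Id3 encode helix-loop-helix proteins that lack a DNA-binding region and hold other such factors in inactive pairs. Both were well above background on all 8 arrays. The Cy3 intensity of Id1 ran from 12199 to 24725 in R175Q and from 16322 to 22174 in wild type. Its log2 ratios, 3.58 to 4.40 in R175Q and 3.79 to 4.45 in wild type, overlapped. The difference of Id1 was −0.26 ± 0.22 (95% interval −0.75 to 0.22), and −0.13 to −0.41 when each array was left out in turn. Id3 read 6012 to 9771 in R175Q and 5733 to 8045 in wild type, with log2 ratios of −3.16 to −2.77 and −3.23 to −2.66. The difference of Id3 was −0.01 ± 0.12 (95% interval −0.29 to 0.26), and −0.11 to 0.08 when each array was left out. These intervals leave room for modest changes of either target gene in either direction.

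**Figure D2:**
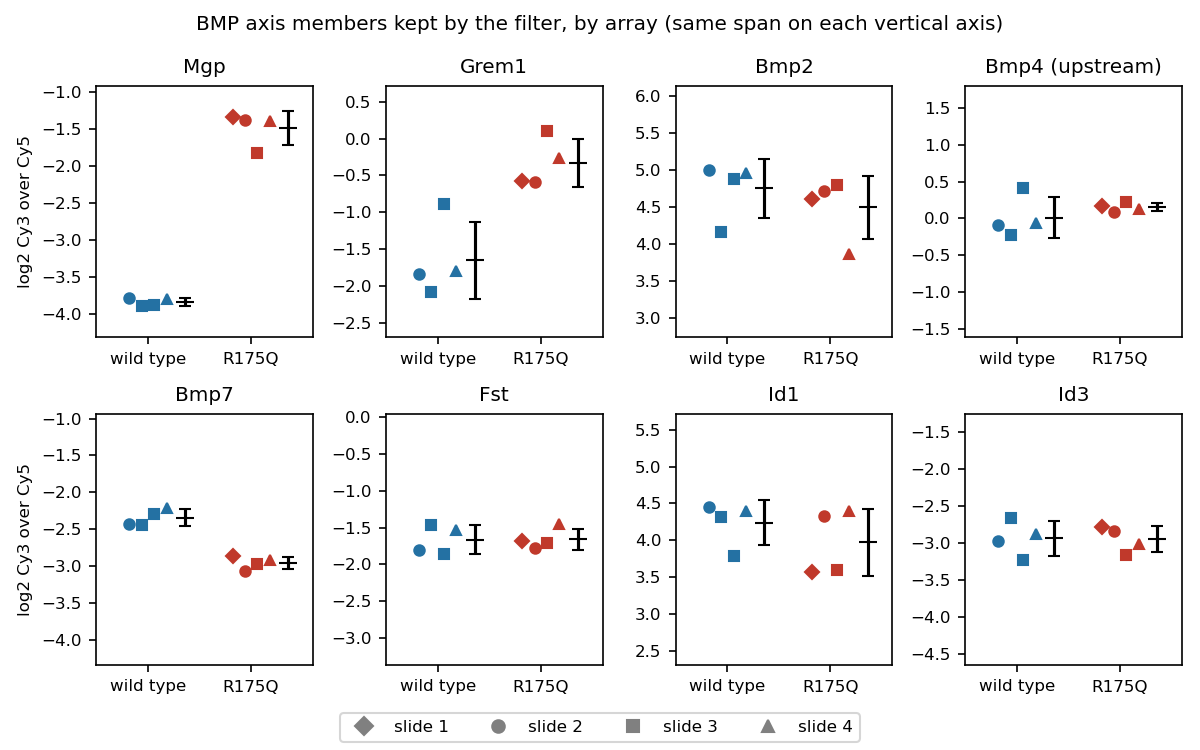
Log2 ratio of Cy3 over Cy5 on each array for the 8 kept probes, wild type in blue and R175Q in red, with the slide shown by the marker and the mean ± SD of 4 arrays in black; each vertical axis spans the same number of log2 units. Mgp and Grem1 were higher and Bmp7 was lower in R175Q without overlap, and the groups overlapped for Bmp2, Bmp4, Fst, Id1 and Id3.

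Over all 22841 kept probes, 4023 or 17.6% passed an adjusted p of 0.05 (limma, Benjamini-Hochberg), 1803 or 7.89% higher and 2220 or 9.72% lower in R175Q. With median centring in place of loess the split was 2786 higher and 812 lower. By the same rule 2 of the 11 probes described here were higher (Mgp and Grem1), 1 was lower (Bmp7), 5 did not pass and 3 were not kept. The groups did not overlap for 22.8% of kept probes, 9.87% higher and 13% lower, and for the same 3 probes here. Since the contrast itself picked the genes, nothing is read from these counts.

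The rest of the pathway was covered by a list of 57 other genes in 6 roles, with 80 probes, of which 50 probes of 38 genes were kept. Among these 5 probes rose, 2 fell and 43 did not pass, so that 14% were called where 17.6% of all kept probes were. The median difference was 0.03 over the list and −0.02 over all kept probes. The median size of a difference was 0.11 over both. The probes that rose belonged to secreted modulators of BMP, to an enzyme and to 1 target gene.

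Among the 13 listed antagonists, 8 probes were kept and 2 rose. Bmper, a secreted protein of the chordin kind that binds BMPs and can promote or block their action, gave Cy3 intensities of 8584, 9640, 8163 and 7773 in R175Q and 5100, 4106, 4317 and 4745 in wild type. It rose by 0.79 ± 0.06 (limma adjusted p = 1.76e-05) and was higher in every R175Q array than in any wild-type array. Nbl1, also called DAN, a secreted antagonist of the same family as gremlin, read 11286, 10830, 12764 and 10912 in R175Q and 6821, 6081, 8929 and 7386 in wild type. It rose by 0.56 ± 0.12 (limma adjusted p = 0.00851), again without overlap. The kept probe of Chrd, which encodes the antagonist chordin, differed by −0.07 ± 0.06 (limma adjusted p = 0.532). Another Chrd probe, well above background on 2 R175Q arrays and on no wild-type array, was not kept and differed by 0.19.

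Among the 4 listed enzymes, Bmp1 encodes a metalloprotease that is no BMP despite its name and cleaves chordin and procollagens. Of its 3 kept probes 2 rose, by 0.63 ± 0.07 (limma adjusted p = 0.00032) and 0.45 ± 0.08 (limma adjusted p = 0.00339), and the third differed by 0.29 ± 0.09 (adjusted p = 0.0565). The first of these read 1593 to 1993 in R175Q and 777 to 1088 in wild type. Ggcx, the carboxylase that completes Mgp and other vitamin K-dependent proteins, differed by 0.00 ± 0.07 (adjusted p = 0.985). The 2 probes of Vkorc1, which recycles vitamin K, differed by −0.08 ± 0.07 and −0.07 ± 0.09 and did not pass either.

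None of the 3 kept probes of other ligands and none of the 12 kept probes of receptors and co-receptors passed. The ligand probe with the lowest p was that of Inhbb, a subunit of activin and inhibin, at −0.20 ± 0.07 (adjusted p = 0.0778). The co-receptor probe with the lowest p was a probe of Rgmb, at 0.20 ± 0.07 (limma adjusted p = 0.0786). This Rgmb probe passed in 4 of 26 other settings, and its sign turned in 2. Another Rgmb probe was not well above background in either channel on any array. At unadjusted p = 0.0216, the type II receptor Bmpr2 stood at −0.18 ± 0.07 (adjusted p = 0.0931). Of the 15 probes for the 13 other ligand genes, 9 were not well above background on any array.

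Among transducers and their brakes 1 of 12 kept probes fell. It was a probe of Smurf2, a ubiquitin ligase that marks Smads and receptors for destruction, at −0.19 ± 0.06 (limma adjusted p = 0.0449). The remaining pair of Smurf2 probes differed by −0.14 ± 0.08 and −0.02 ± 0.07 without passing. The Smad1 probes differed by 0.10 ± 0.11 and −0.02 ± 0.09, and the Smad5 probes both by 0.13 ± 0.07, none of them past the threshold. Among 8 kept probes of other target genes Msx1, a homeobox factor, rose by 0.27 ± 0.07 (limma adjusted p = 0.0252). A probe of Runx2, the master factor of bone cells, fell by 0.23 ± 0.06 on the log2 scale (limma adjusted p = 0.0329), but another Runx2 probe stood at 0.20 ± 0.09 (adjusted p = 0.154), so the probes of Runx2 disagree. Hey1 differed by −0.22 ± 0.08 (limma adjusted p = 0.0881), Id2 by −0.41 ± 0.28 (adjusted p = 0.368) and Id4 by −0.22 ± 0.10 (adjusted p = 0.161). Msx2, at −0.13 ± 0.12, and Atoh8, at 0.02 ± 0.17, did not pass either. The Smurf2 call was lost in 21 of 25 other settings. The Runx2 call was lost in 13 of 26 and the Msx1 call in 7 of 26, apart from 2 settings, both with the background fitted on all spots, in which their signs turned.

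**Figure D3:**
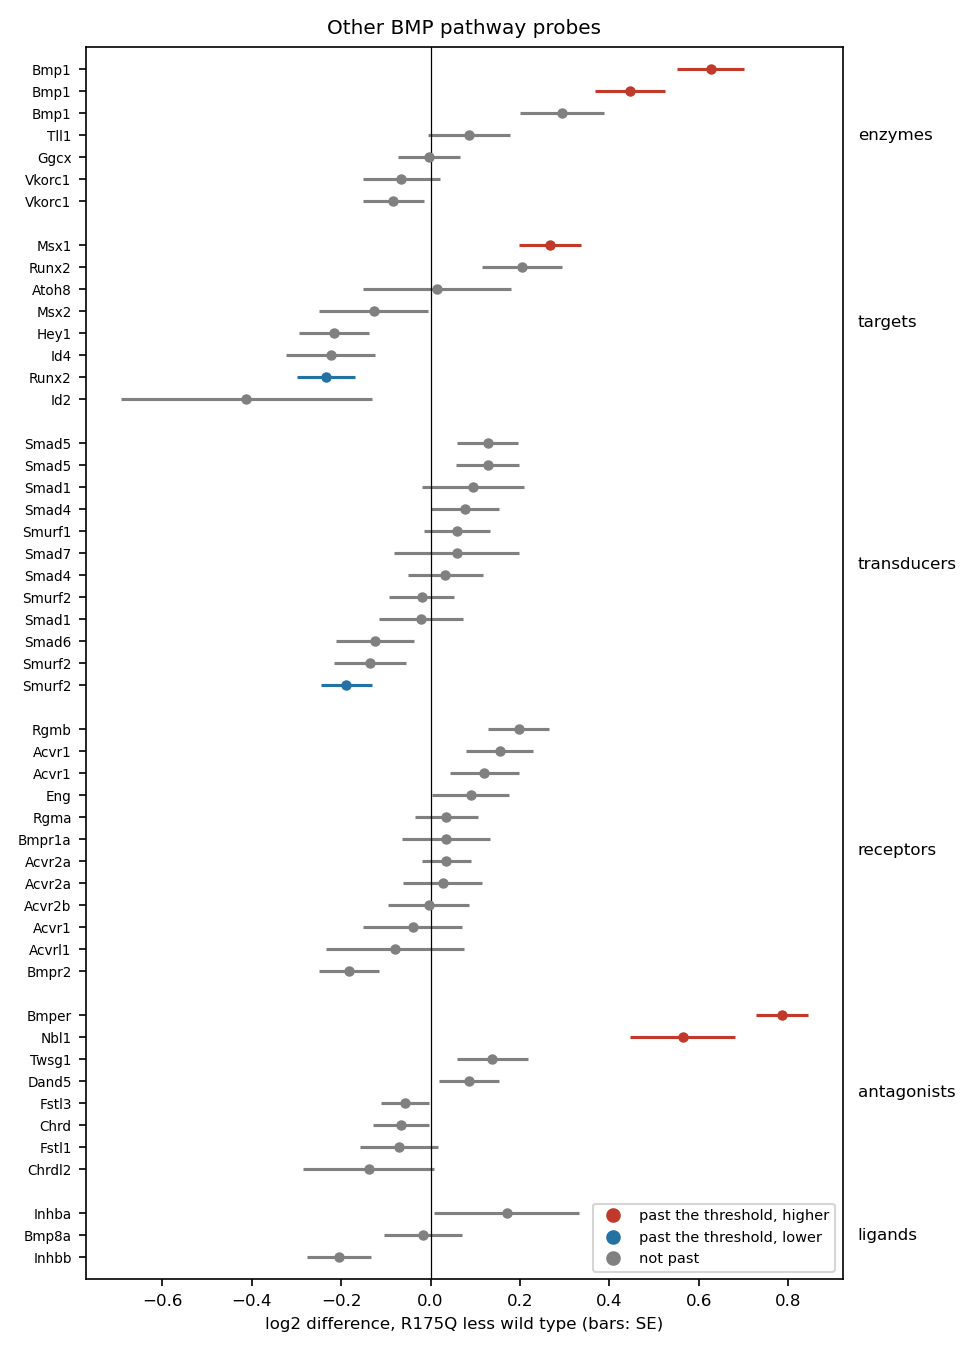
Log2 difference, R175Q less wild type, with its SE, of the 50 kept probes of other BMP pathway genes, by role; red and blue mark probes past an adjusted p of 0.05. Bmper, Nbl1, 2 Bmp1 probes and Msx1 rose, 1 probe each of Runx2 and Smurf2 fell, and none of the receptor or ligand probes passed.

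Mgp and Grem1 differed in how their values ran over the 8 arrays. Their log2 ratios had a Pearson correlation of 0.83, which the shift between the groups dominates, and after each group's mean was taken off the correlation was −0.51. Wild-type replicate 3 stood far above its group for Grem1 and not for Mgp, and R175Q replicate 3 was the highest of its group for Grem1 and the lowest for Mgp. The 5 probes most like Mgp over the 8 arrays were those of 4930447F24Rik (r = 0.9999), Gstm2 (r = 0.999), Ppic, Gstm1 and Fam110b (each r = 0.998). Their differences were 1.03 to 1.18 log2. The 5 most like Grem1 were those of Blzf1 (r = 0.997), Rgs2 (r = 0.996), Hspb8 (r = 0.995), Rgs3 (r = 0.994) and Kctd15 (r = 0.994), with differences of 0.35 to 1.13. Since a correlation over both groups picks probes that are higher in R175Q, these differences follow from the choice. Nbl1, singled out after its values were seen, came next (r = 0.993) and stayed at 0.97 after the group means were taken off, while Bmper correlated with Grem1 at −0.82 after that step. A value of this size was not particular to Nbl1. After the same step an Acvr1 probe stood at 0.996, a Smad1 probe at 0.98, Inhba at 0.96 and Id2 at −0.97. The points of these correlations share the arrays and the group difference, so they describe the 8 arrays only.

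**Figure D4:**
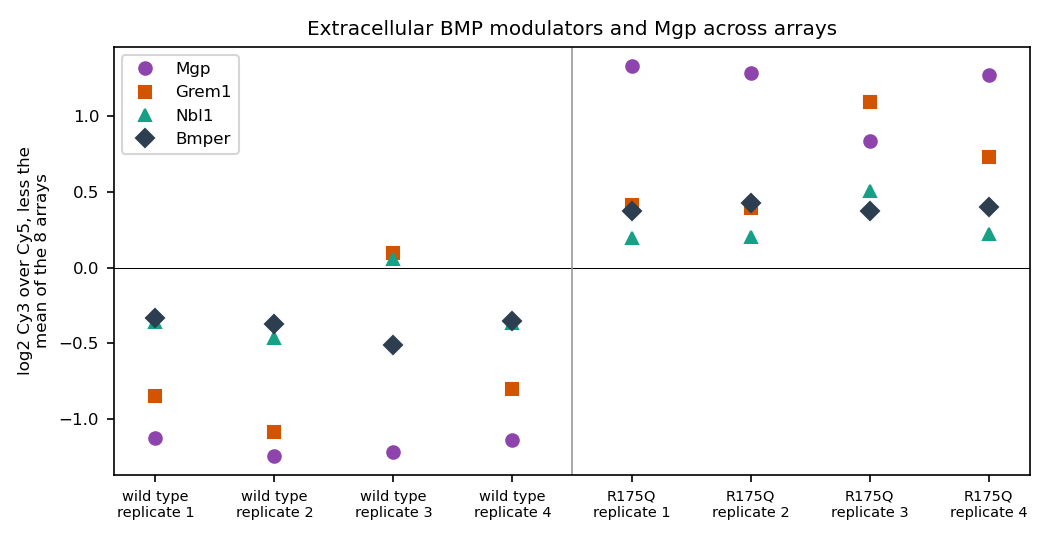
Log2 ratio of Cy3 over Cy5 less its mean over the 8 arrays, for Mgp, Grem1, Nbl1 and Bmper on each array. Wild-type replicate 3 and R175Q replicate 3 are the highest of their groups for Grem1 and Nbl1 but not for Mgp or Bmper.

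Markers of other cell types were read beside these results, since Mgp and Grem1 are also made by stromal cells. In bulk RNA a change in the number of cells of a type and a change in RNA per cell cannot be told apart. Of 9 fibroblast markers 7 were kept and 4 were higher in R175Q, Pdgfrb by 1.18 ± 0.10, Dcn by 0.72 ± 0.14, Col1a2 by 0.58 ± 0.09 and Col3a1 by 0.39 ± 0.10 (limma adjusted p = 4.86e-05, 0.00492, 0.00202 and 0.0289). Col1a1, Pdgfra and Thy1 did not pass, and Lum and Postn were not well above background on any array. The summed Cy3 intensity of the fibroblast list was 0.00148% to 0.00176% of that of all probes in R175Q and 0.000846% to 0.00107% in wild type, and Col1a2 stood at log2 ratios of −7.64 and −8.22 against the reference. The epithelial list made up 0.268% to 0.291% in R175Q and 0.335% to 0.36% in wild type. Of its 7 kept probes 4 were lower and none higher, the furthest being Krt7 at −1.91 ± 0.06 (limma adjusted p = 1.97e-07). All 4 were keratin probes, of Krt7, Krt19 and Krt8. Krt18 (−0.19 ± 0.07), Epcam (−0.27 ± 0.10) and Cdh1 (−0.01 ± 0.10) did not pass. Of the endothelial list both Vwf probes were higher. The kept probes of Pecam1 (−0.21 ± 0.09) and Kdr (−0.07 ± 0.07) did not pass. Cdh5, Emcn and Tek were not well above background on any array. Of 10 kept macrophage and leukocyte probes 2, of Mrc1 and Emr1, were lower. This Emr1 probe was well above background on 4 wild-type arrays but on only 2 R175Q arrays. Another Emr1 probe was not kept, and its groups overlapped, with a difference of −0.12. The other 8 kept probes of this list did not pass, from −0.14 for a Csf1r probe to 0.54 for a Cd68 probe. Fabp4 was lower, and the other adipocyte genes were not well above background on any array. Of the cartilage and bone list Sox9 was higher. Acan (−0.09 ± 0.09) and both Bglap probes (0.08 ± 0.06 and −0.24 ± 0.11) did not pass. Col2a1 and Ibsp were not well above background on any array. The part of these shifts in the values of Mgp, Grem1 and Bmp7 was not tested.

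Over the other settings the difference of Mgp ran from 1.52 to 2.59, that of Grem1 from 1.17 to 1.57 and that of Bmp7 from −1.42 to −0.45. Mgp was smallest with the background fitted on all spots and slide as a block, at 1.52 ± 0.28, where Bmp7 stood at −0.92 ± 0.52. Bmp7 has no value where a probe had to be well above background on all 8 arrays. The genes were picked on this contrast, so these ranges describe the processing and add no support.

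**Figure D5:**
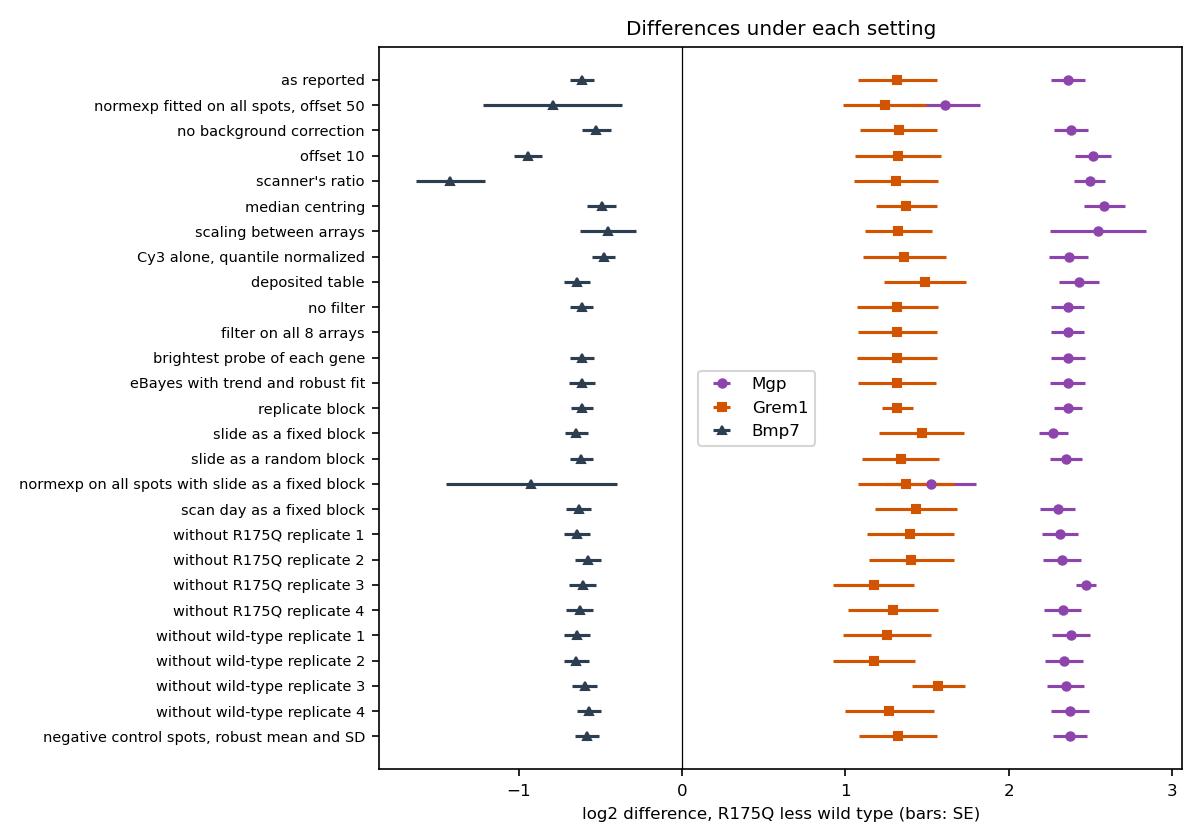
Log2 difference, R175Q less wild type, with its SE, of the Mgp, Grem1 and Bmp7 probes as reported and under each other setting. Mgp lies between 1.52 and 2.59, Grem1 between 1.17 and 1.57 and Bmp7 between −1.42 and −0.45.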

How the data were processed

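The scanner files were written by Agilent Feature Extraction 9.5.3.1, per the file headers, and give each spot's mean intensity, its median local background intensity, quality flags and the log10 of Cy5 over Cy3 after the software's own processing. A deposited table of log2 ratios was used as an alternative. Set against the scanner ratios with the sign turned, its columns correlated at 0.901 to 0.941 with slopes of 0.657 to 0.751, which gave the direction, Cy3 over Cy5; its scaling and centring remain unknown. In R175Q its 4 columns had medians of 0.0585, 0.0563, 0.0607 and 0.0544, and in wild type 0.0526, 0.0617, 0.0592 and 0.0556.

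Here the local background was subtracted from the 44397 spots, and each channel was corrected by limma's nec, which takes the background level from the 153 negative control spots, with an offset of 50. The routine normexp fit on all spots placed the Cy3 background between −690 and −0.369, where the medians of the negative control spots were 13.1 to 22.7, so it served as an alternative. Loess within arrays followed, spots of a probe were averaged, and 130 probes flagged as non-uniform were left out. The contrast was fitted with limma 3.58.1 (lmFit, eBayes, two-sided; statmod 1.5.0, R 4.3.3) on all 22841 kept probes, with Benjamini-Hochberg adjustment. Values after ± are SE of the difference unless named SD. The fit alone was tested on simulated log ratios with known changes and independent noise on each array. These held no slide effect and no background step, so that test cannot speak to either.

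The genes, the pathway and marker lists and the choice of background were made with earlier results of these data known. Named pathway probes were, in each role, up to 3 past the threshold in each direction, or the 1 with the lowest p where there was none; probes most like Mgp and Grem1 were the 5 with the highest correlation. Other pathway probes and marker genes named with values were chosen after their values were seen. Alternatives varied the background, offset, normalization, filter, probe choice, variance model, blocks and arrays; a robust estimate from the negative control spots was added after seeing the data. Probe coordinates were copied from the scanner files (mm9).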

Additional observations from a re-analysis of the deposited data

Results flagged for a closer look

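In 4 of the 40 groups of 4 arrays examined, 1 array lay far from the rest by Dixon's criterion at its 95% critical value, which chance alone meets in about 1 of 20 groups. These were Mgp in R175Q replicate 3, at a log2 ratio of −1.82 below the other R175Q arrays; Nbl1 in the same array, at 0.82 above them; Bmp2 in wild-type replicate 2, at 4.16 below the other wild-type arrays; and 1 Bmp1 probe in wild-type replicate 3, at 0.13 above them. R175Q replicate 3, wild-type replicate 2 and wild-type replicate 3 shared slide 3; what part the slide has in these values was not tested.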

How the results depend on the processing

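Mgp differed by 1.61 with the background fitted on all spots, 1.52 with slide as a block added to that, 2.59 with median centring and 2.55 with scaling between arrays. Leaving out each array gave 2.31 to 2.47 for Mgp and 1.17 to 1.57 for Grem1. Probes called over the whole array were 483 higher and 430 lower with the background fitted on all spots, 0 and 1 with slide as a block added (2616 at an unadjusted p under 0.05, limma), 2786 and 812 with median centring, 1124 and 1263 with scaling, and 1287 to 2496 higher and 1461 (without wild-type replicate 1) to 2649 lower without each array. Other pathway probes called higher were 8 with median centring, 0 with the background fitted on all spots and slide as a block, and 4 to 9 (9 without wild-type replicate 3) without each array. Those called lower were 0 with the background fitted on all spots (with or without the slide), no background correction, an offset of 10, the scanner's ratio, median centring, scaling, Cy3 alone, slide or scan day as a fixed block; 1 with the deposited table, no filter, the brightest probe or the robust background; and 0 to 4 (4 without wild-type replicate 3) without each array. Signs turned with the background fitted on all spots, and again with the slide added, for Rgmb (−0.035, −0.079), Msx1 (−0.24, −0.30) and Runx2 (0.10, 0.18), and with scaling for Inhbb (0.060). In the same settings on all spots Bmp2 turned too (0.49, 0.79), and Fst moved to −0.18 and −0.21. The cause was not tested. With the replicate number as a replicate block, 2092 probes were higher and 2513 lower, and 6 and 3 among the other pathway probes. In that fit the SE of Grem1 was 0.10 in place of 0.24, and that of Nbl1 was 0.06 in place of 0.12. The errors of these probes, and the interval given for Grem1, thus depend on whether the arrays are paired. Same-numbered arrays deviated together with correlations of 0.327, 0.0126, 0.464 and 0.0542, so the number was not taken to pair them; the arrays numbered 3, and those numbered 4, also share a slide. Dim signal limits Nog, Bambi, the downstream Bmp4 probe and Bmp7. The Inhbb probe, at Cy3 intensities of 59.7 to 91.4, and the Runx2 probe that fell, at 88.9 to 156, were dim too.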
